A study of Mus musculus with 4 samples.

Results

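A set of 7 marker genes of the mouse olfactory bulb was followed through 3 brain RNAs on 4 arrays: Doc2g, Cdhr1, Eomes, Tbx21, Omp, Sp8 and Nmb. They were chosen by name, as the probes whose RefSeq accession belongs to these 7 genes. That gave 8 probes, 2 for Doc2g and 1 for each other gene, of 41174 probes in all, of which 23374 could be assigned to 16534 named genes. Of the 7 genes, 5 stood highest in SAMR1, next in SAMP8 on whale meat extract and lowest in SAMP8 on the control diet. This order is that of the brightest probes, by a rule written after the values were seen, and it rests on scaling between arrays. Within arrays, the diet ratios of Doc2g and Nmb differed in sign between the dye orientations. The differences were small, at most 1.32-fold in the mean of a pair, and Eomes and Omp did not share the pattern.

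The RNAs came from whole brain of 50-week-old mice. SAMP8 is a senescence-accelerated inbred strain with early deficits of learning and memory, and SAMR1 is the senescence-resistant strain used as its control. The labels give both strains an AKR/J background with possible outbreeding to a line that is not known. The first group was SAMR1 on the control diet, named low-safflower oil (LSO), the second SAMP8 on the same LSO diet, and the third SAMP8 fed whale meat extract (WME) in the diet. All mice ate chow until 24 weeks of age, took their diet for 26 weeks, and passed through 8 days of behavioural tests at 49 weeks. The diet pair, arrays 1 and 2, compared the SAMP8 groups with each other, and the strain pair, arrays 3 and 4, compared the LSO groups. Within a pair the Cy3 and Cy5 dyes were exchanged. The labels do not say how many mice stood behind an RNA. Each group is therefore 1 RNA and each pair of arrays 1 replicate, so no difference below was checked over replicates, and none has a p-value. An SD stands for the spread over the 2 dye orientations, which is technical and holds the dye bias of the probe that the mean of both arrays cancels. In whole-brain RNA, fewer bulb cells, a smaller share of bulb in the tissue and less RNA per cell cannot be told apart.

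The olfactory bulb is the first relay of smell in the brain. Axons of sensory neurons in the nose end in its glomeruli on mitral and tufted cells, the output neurons, whose signals are shaped by periglomerular and granule interneurons. New interneurons reach the bulb throughout life as neuroblasts that migrate from the wall of the lateral ventricle. Tbx21 (T-bet) and Eomes (Tbr2) are T-box transcription factors of mitral and tufted cells. Cdhr1 is a cadherin-related adhesion protein of the same cells, Doc2g is a protein of the double C2 family with strong bulb expression, and Nmb encodes the neuropeptide neuromedin B. Sp8 is a zinc finger transcription factor of bulb interneurons and their precursors, and Omp is the olfactory marker protein of mature sensory neurons.

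The sequences upstream of Doc2g, Cdhr1, Tbx21 and Eomes are shown because the first 3 genes had the same order over the 3 RNAs and Eomes, which like Tbx21 encodes a T-box factor, did not. They are the 250 bases before the RefSeq start in build GRCm38.p6, written 5′ to 3′ on the strand of the gene. They lie at chr19:4003135-4003384, plus strand for Doc2g, chr14:37098348-37098597, minus strand for Cdhr1, chr11:97115332-97115581, minus strand for Tbx21 and chr9:118477939-118478188, plus strand for Eomes. Capitals mark GTGTGA, the core of the site that T-box factors bind, on either strand.
Doc2g: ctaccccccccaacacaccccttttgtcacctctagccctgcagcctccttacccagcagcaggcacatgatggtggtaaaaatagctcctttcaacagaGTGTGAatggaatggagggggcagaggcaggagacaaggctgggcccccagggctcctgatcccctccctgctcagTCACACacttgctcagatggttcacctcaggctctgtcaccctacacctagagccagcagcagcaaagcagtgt
Cdhr1: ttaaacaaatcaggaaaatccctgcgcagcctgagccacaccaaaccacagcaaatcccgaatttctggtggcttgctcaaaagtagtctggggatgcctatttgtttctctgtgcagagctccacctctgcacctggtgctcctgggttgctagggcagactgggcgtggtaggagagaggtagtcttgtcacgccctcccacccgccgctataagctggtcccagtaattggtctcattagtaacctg
Tbx21: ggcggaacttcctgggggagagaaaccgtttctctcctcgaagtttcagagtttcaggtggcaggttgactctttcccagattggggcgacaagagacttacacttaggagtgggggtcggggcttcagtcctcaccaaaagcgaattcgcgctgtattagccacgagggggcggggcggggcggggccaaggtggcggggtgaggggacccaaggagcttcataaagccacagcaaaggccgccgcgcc
Eomes: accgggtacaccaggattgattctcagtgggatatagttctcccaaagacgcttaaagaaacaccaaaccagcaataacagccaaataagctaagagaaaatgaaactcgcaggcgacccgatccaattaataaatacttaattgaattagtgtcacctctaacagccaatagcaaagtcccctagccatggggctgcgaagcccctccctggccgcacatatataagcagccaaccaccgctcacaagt

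RefSeq windows were matched by symbol for 6 of the 7 genes, with 3 start sites for Sp8. GTGTGA or its reverse complement occurred at 2 places in the Doc2g window, whose first bases lie 150 and 74 bases before the start, and at no place in the Cdhr1, Tbx21, Eomes and Nmb windows. Of the 3 Sp8 windows, 2 held 1 match each. Over all 32851 windows of this length, 12.3% held the motif; the matches are a description of the letters only. The GC box GGGCGG occurred in windows of 3 genes, Tbx21, Nmb and Sp8, against 32.7% of all windows. The homeodomain core TAATTA occurred in 1 Sp8 window, against 4.84% of all windows. The EBF site, a 10-base palindrome searched by its letters, occurred in 0 of these windows, against 0.779% of all windows. Each motif was searched on both strands.

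All 8 probes were well above background in all 8 channel readings, as Feature Extraction marks it. The raw median signal stood 33.2 to 50.0 times over local background for the brighter Doc2g probe, 30.5 to 45.6 times for Cdhr1 and 29.6 to 49.9 times for Nmb. The ratio was 5.62 to 8.35 for Sp8, 4.91 to 5.93 for Eomes and 4.05 to 5.89 for Tbx21. Omp was the dimmest over its background, at 1.58 to 2.58 times. As a check of the tissue, 5 of 5 brain cell markers (Snap25, Slc17a7, Gad1, Gfap and Mbp) were well above background in all 8 readings. Per channel, 81.0% to 85.2% of all probes passed this mark, and no probe was saturated. With 4 arrays in all, their number limits the precision.

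Levels are given as normalized log2 intensities, each reading set only against readings of the same probe. A difference in log2 intensity of 1 is a doubling on this scale. Because a probe can be brighter in 1 dye, readings are compared within a dye. An array gives 1 reading per dye, so every order within a dye rests on the scaling between arrays. SAMR1 and SAMP8 WME were also never on 1 array, so they have no ratio within an array.

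Doc2g read 11.89 in SAMR1, 11.48 and 11.50 in SAMP8 LSO and 11.59 in SAMP8 WME in Cy3. Its Cy5 readings were 11.75 in SAMR1, 11.31 and 11.34 in SAMP8 LSO and 11.42 in SAMP8 WME. SAMR1 was the highest in both dyes, WME was next and both readings of SAMP8 LSO were the lowest. The second Doc2g probe read 10.40, then 9.91 and 9.98, then 10.11 in Cy3 for SAMR1, LSO and WME. Its Cy5 readings were 10.27, then 9.86 and 9.96, then 9.90. This probe had SAMR1 highest in both dyes, while in Cy5 its WME reading lay between the LSO readings.

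Cdhr1 read 11.66 in SAMR1, 11.33 and 11.28 in SAMP8 LSO and 11.47 in WME in Cy3. The Cy5 readings of Cdhr1 were 11.50 in SAMR1, 11.19 and 11.17 in LSO and 11.34 in WME. The order was that of Doc2g in both dyes. Tbx21 read 8.82 in SAMR1, 8.39 and 8.52 in LSO and 8.74 in WME in Cy3. The Cy5 readings of Tbx21 were 8.73 in SAMR1, 8.61 and 8.49 in LSO and 8.63 in WME. The order was again SAMR1, WME and LSO, but in Cy5 WME exceeded the higher LSO reading by little.

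Nmb read 11.60 in SAMR1, 11.26 and 11.23 in LSO and 11.43 in WME in Cy3. The Cy5 readings of Nmb were 11.60 in SAMR1, 11.44 and 11.53 in LSO and 11.59 in WME. Sp8 read 9.07 in SAMR1, 8.77 and 8.73 in LSO and 8.98 in WME in Cy3. The Cy5 readings of Sp8 were 9.14 in SAMR1, 8.96 and 8.96 in LSO and 9.02 in WME. Both genes kept the order in both dyes, with the RNAs farther apart in Cy3 than in Cy5. For Nmb in Cy5, SAMR1 exceeded WME by little.

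Eomes read 8.75 in SAMR1, 8.72 and 8.74 in LSO and 8.74 in WME in Cy3, close to each other. In Cy5 it read 8.76 in SAMR1, 8.87 and 8.86 in LSO and 8.61 in WME, so that LSO was the highest there. Omp read 7.12 in SAMR1, 7.26 and 7.59 in LSO and 7.19 in WME in Cy3. In Cy5 it read 7.50 in SAMR1, 7.21 and 7.26 in LSO and 7.30 in WME. SAMR1 was thus the lowest in Cy3 and the highest in Cy5, and the Cy3 readings of the LSO group alone lay as far apart as 7.26 and 7.59.

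SAMR1 lay above both LSO readings in both dyes for 5 of 7 members, against 18.3% of all 26395 genes measured in both pairs. In this and all later shares of genes, an accession without a gene name also counts as a gene. WME lay above both LSO readings in both dyes for 5 of 7, against 15.4%, and SAMR1 lay above WME in both dyes for 6 of 7, all but Omp, against 32.8%. The full order SAMR1 over WME over both LSO readings, in both dyes, was met by 5 of 7 members on their brightest probe. Of the same genes, 2.88% met it. This rule was written after the values had been seen. The same 5 members met it under median centring, under Feature Extraction's processed signals, with a smaller background offset and with outlier spots kept, where 2.88% to 4.51% of all genes did. The log2 ratio of WME to SAMR1 taken through the LSO group, given below, went against this order in places. It was 0.04 for Nmb under median centring, and 0.03 and −0.21 for Tbx21 in the array sums that cancel dye bias. The SAMP8 LSO group was read in both pairs. By the brightest probes, its mean level on arrays 3 and 4 differed from that on arrays 1 and 2 by −0.03 to 0.03 for these 5 genes and Eomes. For the second Doc2g probe it differed by 0.08. For Omp it differed by 0.19, more than any of its array ratios in size. Within a dye both readings of the LSO group lay farther apart for some members. From the diet to the strain pair Tbx21 went from 8.39 to 8.52 in Cy3 and from 8.61 to 8.49 in Cy5, which cancels in the mean. Nmb went from 11.44 to 11.53 in Cy5. In Cy5 these gaps were wider than the margin of WME over LSO for Tbx21 and of SAMR1 over WME for Nmb.

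**Figure D1:**
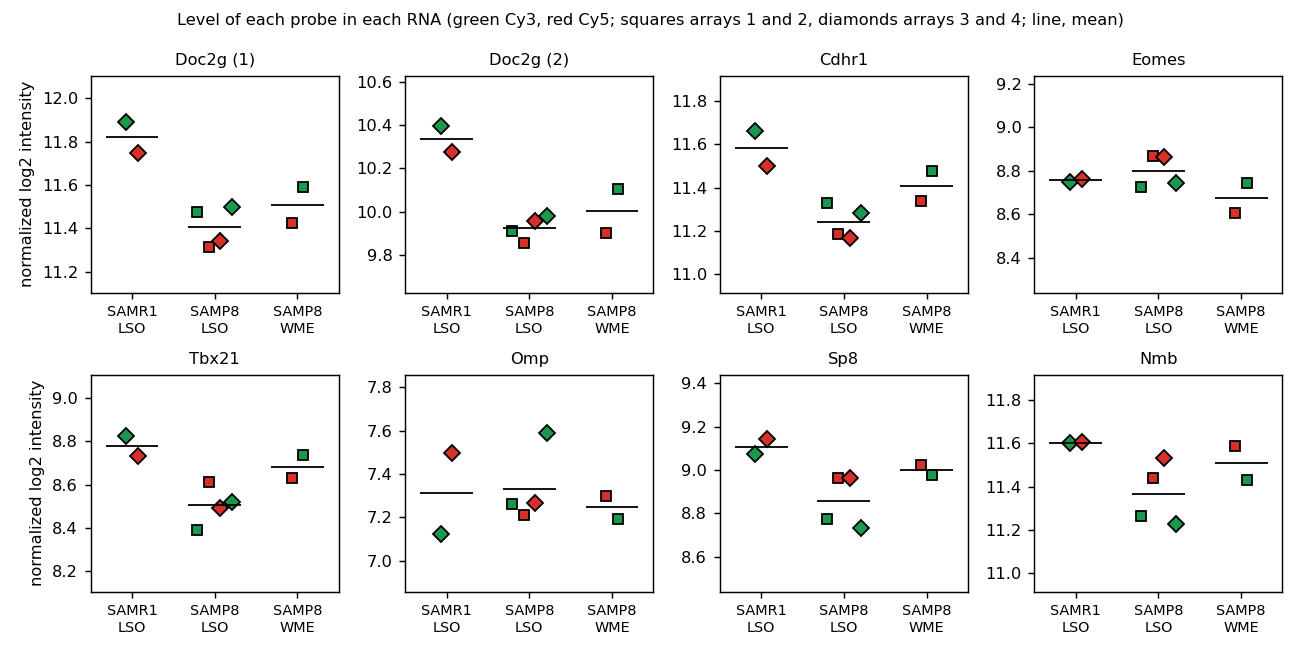
Normalized log2 intensity of each member probe in the 3 RNAs, with Cy3 readings in green, Cy5 readings in red, squares for arrays 1 and 2, diamonds for arrays 3 and 4 and a line at the mean; each panel spans 1 log2 unit and its height is set by its own probe. For Doc2g, Cdhr1, Tbx21, Sp8 and Nmb the SAMR1 readings lie above the SAMP8 LSO readings of the same colour, which is not so for Eomes and Omp.

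The strain comparison asked how SAMP8 brain differs from SAMR1 brain when the LSO diet is shared. Of 7 members, 5 were lower in SAMP8 on both arrays, against 26.6% of all 26939 measured genes. Measured genes are those whose probe passed the background mark for 1 or both RNAs of a pair, on each of its arrays. Above 0 on both arrays stood 1 member, Omp, against 23.9%. By the mean of both arrays 5 members were below 0, against 53.2%, and 2 above, against 46.8%. None of the members reached 1.5-fold on both arrays with 1 sign, a mark that 0.494% of genes reached as lower and 0.969% as higher. Nor did any reach 1.2-fold on both arrays, as 1.71% did as lower and 2.81% as higher. The median of the 7 log2 ratios was −0.26, against −0.01 over all measured genes.

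Among the genes of the output neurons, Doc2g had log2 ratios of −0.55 and −0.25 on arrays 3 and 4, a mean of −0.40 ± 0.22 (SD) and a 1.32-fold lower level in SAMP8. Its second probe had −0.44 and −0.29, a mean of −0.37 ± 0.10. Both probes thus had the same sign on both arrays. Cdhr1 stood at −0.49 and −0.22, a mean of −0.35 ± 0.20, or 1.28-fold lower. Tbx21 stood at −0.33 and −0.21, a mean of −0.27 ± 0.08, or 1.21-fold lower. Nmb stood at −0.07 and −0.38, a mean of −0.22 ± 0.22, or 1.17-fold lower. The T-box gene Eomes, in contrast, stood at 0.12 and −0.02, so that its arrays differed in sign around a mean of 0.05 ± 0.10.

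Of the other members, the interneuron gene Sp8 stood at −0.11 and −0.41, a mean of −0.26 ± 0.21. The sensory neuron gene Omp stood at 0.14 and 0.09, a mean of 0.12 ± 0.03. Of all measured genes, 1.53% lay at or below the mean ratio of Cdhr1, 2.68% at or below that of Sp8 and 3.56% at or below that of Nmb. For Eomes and Omp the shares were 73.0% and 88.1%. With a mean of at least 1.2-fold and the same sign on both arrays, a rule added after the values were seen, Doc2g, Cdhr1 and Tbx21 were lower, 3 of 7 members against 2.59% of all genes, and 0 were higher, against 3.78%.

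**Figure D2:**
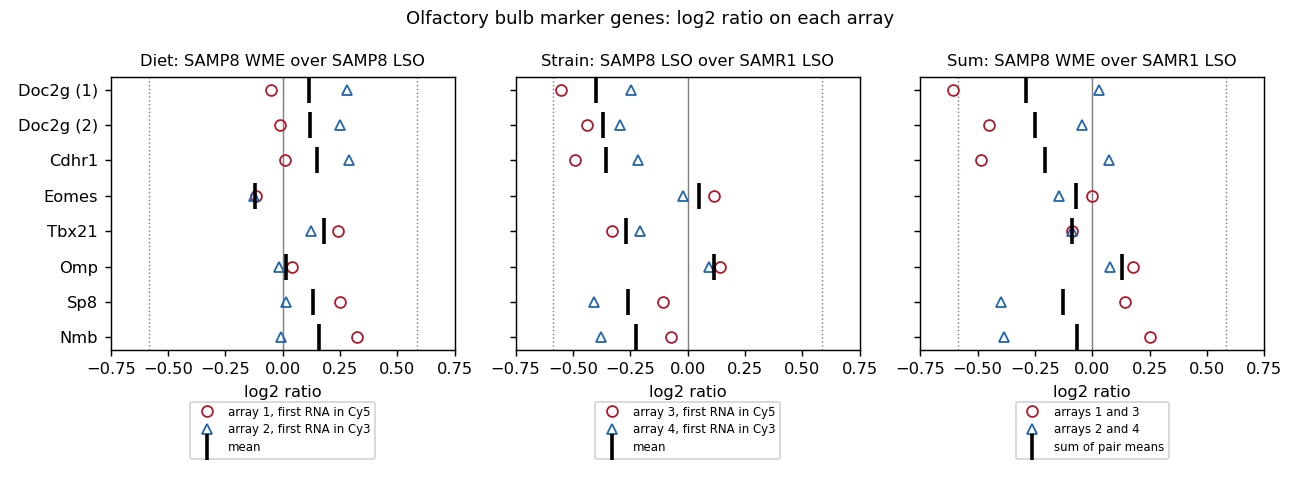
Log2 ratio of each member probe on each array (open symbols) and the mean of a pair or sum of the pair means (black bar), with dotted lines at 1.5-fold; Doc2g has 2 probes, the brighter marked 1. In the strain panel both symbols of Doc2g, Cdhr1, Tbx21, Sp8 and Nmb lie below 0, with means from −0.40 to −0.22.

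The diet comparison asked how WME altered expression in SAMP8 brain. Of 7 members, 6 had a mean log2 ratio above 0, against 52.8% of 26667 measured genes, and 1 below 0, against 47.2%. Above 0 on both arrays were 3 of 7, against 20.5%, and below 0 on both was 1, against 17.6%. No member reached 1.5-fold in either direction on both arrays, as 0.0562% of genes did as higher and 0.03% as lower. At 1.2-fold on both arrays the count was also 0, against 0.172% higher and 0.109% lower, and so it was by the 1.2-fold rule on the mean, against 0.266% and 0.214%. The median of the 7 mean ratios was 0.13, against 0.00 over all genes. On single arrays the median of the members was 0.04 and 0.01, as different members were the higher ones on each array.

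Tbx21 had the highest mean, with log2 ratios of 0.24 and 0.12 on arrays 1 and 2 and a mean of 0.18 ± 0.08, or 1.13-fold higher with WME. Nmb stood at 0.32 and −0.01, a mean of 0.16 ± 0.23, and Cdhr1 at 0.01 and 0.29, a mean of 0.15 ± 0.20. Doc2g stood at −0.05 and 0.28, a mean of 0.11 ± 0.23, and its second probe at −0.01 and 0.25, a mean of 0.12 ± 0.18. For Doc2g and Nmb the 2 dye orientations thus did not share a sign. Sp8 stood at 0.25 and 0.01, a mean of 0.13 ± 0.17.

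Eomes was the member below 0 on both arrays, at −0.12 and −0.12, a mean of −0.12 ± 0.005, and Omp stood at 0.04 and −0.01, a mean of 0.01 ± 0.04. Of all measured genes, 99.2% lay at or below the mean of Tbx21, 98.7% at or below that of Nmb, 98.4% for Cdhr1, 97.6% for Sp8 and 96.0% for Doc2g. The shares for Omp and Eomes were 55.4% and 3.79%. Eomes thus lay among the lower genes of the diet comparison and the 5 others among the higher.

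The dye bias of most member probes repeated between the pairs. The dye term, the difference between the turned ratios of a pair divided by 2, was −0.17 in the diet pair and −0.15 in the strain pair for Doc2g and −0.14 in both for Cdhr1. It had the opposite sign for Nmb, 0.17 and 0.15, and for Sp8, 0.12 and 0.15. These probes thus read low or high in Cy5 in both pairs alike. Tbx21 had dye terms of 0.06 and −0.06. Subtracting 1 dye term from the other and scaling to the error of a pair mean removes RNA differences and constant dye bias. Its SD over the 1000 genes nearest in brightness to each member was 0.04 to 0.06, and over all genes it reached 0.1 in size in 4.41% and 0.2 in 0.159%. The strain means of the 5 lower members, −0.40 to −0.22, and their diet means, 0.11 to 0.18, were larger in size than this technical SD. So were the Eomes diet mean, −0.12, and the Omp strain mean, 0.12, which go against the pattern. The SD thus does not set the 5 genes apart. The Eomes strain mean, 0.05, was close to it, and the Omp diet mean was smaller than it. For Tbx21 the scaled difference of dye terms was itself 0.08, above the SD of 0.05 at its brightness. This error does not hold the spread between mice.

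**Figure D3:**
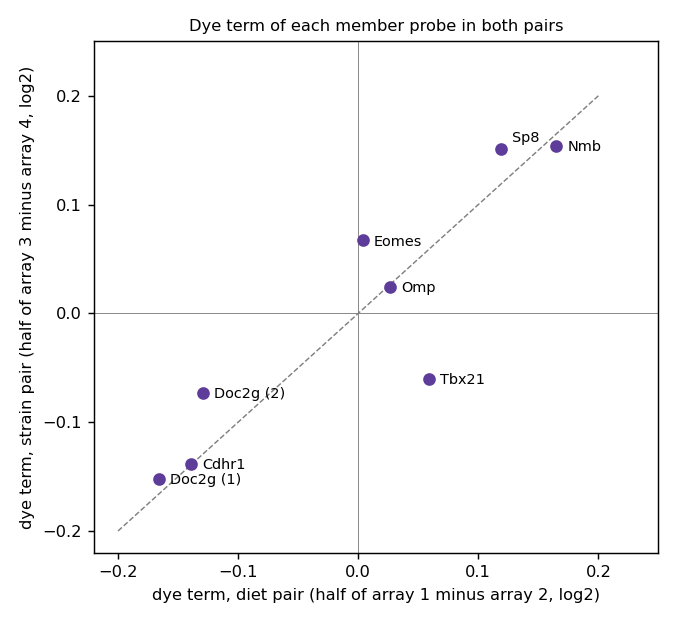
Dye term of each member probe in the diet pair (horizontal) and the strain pair (vertical), in log2 units, with a dashed line where both are equal. Doc2g and Cdhr1 lie at negative and Sp8 and Nmb at positive values in both pairs, near the line, and Tbx21 at 0.06 and −0.06 lies off it.

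Both comparisons share the SAMP8 LSO group, as denominator for diet and numerator for strain, so ratios of opposite sign in the 2 are partly built in. Of 7 members, 5 had a positive diet mean with a negative strain mean, against 31.7% of all genes. The sum of both log2 ratios sets SAMP8 WME against SAMR1 through the LSO group, which cancels only as far as its readings in both pairs agree. In the sum, 6 of 7 members were below 0, against 50.7% of 26395 genes, and 1 above, against 49.3%. In both sums of arrays with the same dye orientation 2 were below 0, against 17.9%, and 1 above, against 19%. None reached 1.5-fold in both of these sums, as 0.398% of genes did as lower and 0.811% as higher. The count was also 0 at 1.2-fold, against 1.29% and 2.37%, and by the 1.2-fold rule on the mean, against 2.44% and 3.8%.

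Doc2g stood at −0.29 in the sum, with −0.30 and −0.27 in the array sums that cancel its dye bias, and its second probe at −0.25. Cdhr1 stood at −0.21, with −0.21 and −0.21 in those sums. Sp8 stood at −0.13 (−0.16 and −0.10), Nmb at −0.07 (−0.06 and −0.08) and Eomes at −0.07 (−0.14 and −0.01). Tbx21 stood at −0.09, with 0.03 and −0.21 in the dye-cancelled sums, which differed in sign. Omp stood at 0.13 (0.13 and 0.13). Of all genes, 2.17% lay at or below the sum of Doc2g and 4.56% at or below that of Cdhr1. Tbx21 (19.3%) and Nmb (24.8%) were nearer to the middle of all genes. In the sums of like dye orientation Doc2g stood at −0.61 and 0.03 and Cdhr1 at −0.48 and 0.07. Sp8 stood there at 0.14 and −0.40 and Nmb at 0.25 and −0.39. For each of these genes the sign turned in 1 of the sums. Tbx21 and Eomes were the 2 members below 0 in both of these sums.

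**Figure D4:**
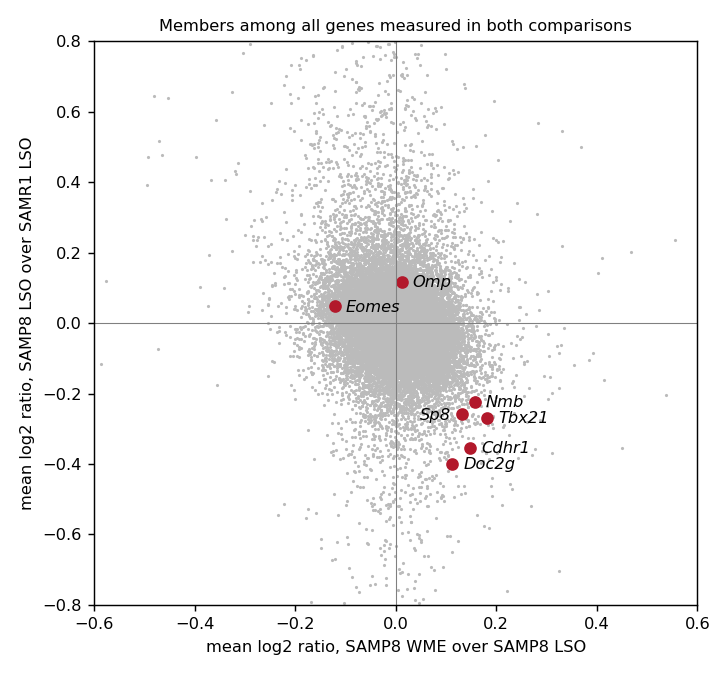
Mean log2 ratio of the diet comparison (horizontal) against that of the strain comparison (vertical) for 26395 genes measured in both (grey; 291 lie outside the axes), with the 7 members in red. Doc2g, Cdhr1, Tbx21, Sp8 and Nmb lie together at diet ratios of 0.11 to 0.18 and strain ratios of −0.40 to −0.22, and Eomes and Omp lie apart; the SAMP8 LSO group enters both axes with opposite sign.

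Other genes of the bulb were taken from lists of its cell types, written with earlier results of these data known. Their medians stand beside those of all genes, 0.00 for diet and −0.01 for strain. Of all genes, 26.6% were below and 23.9% above 0 on both strain arrays. On both diet arrays 17.6% were below and 20.5% above 0. By its brightest probe, no gene of the bulb neuron, neuroblast or ensheathing glia lists reached 1.5-fold on both arrays in either comparison. Of 9 other mitral and tufted cell genes, 2 were below 0 and 4 above 0 on both strain arrays, with a median of 0.01. Tbr1, a T-box factor that is also strong in cerebral cortex, was the lowest at −0.30 ± 0.06 in the strain comparison and the highest with WME at 0.19 ± 0.05. Lhx1, a LIM homeobox factor also found in cerebellum, stood at −0.28 ± 0.11 with WME and 0.17 ± 0.03 in the strain comparison. The wider list thus had no common direction, and several of its genes are expressed in other brain regions too.

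Among the bulb lists, those of granule cells and neuroblasts had medians of the same sign as the members in both comparisons. Of 6 bulb granule cell genes with a probe, 5 were below 0 on both strain arrays, with a median of −0.10, and 3 were above 0 on both diet arrays, with a median of 0.06, led by Tpbg (0.12 ± 0.16) and the homeobox gene Pbx3 (0.11 ± 0.01). Meis2, a homeobox factor of these cells, stood at −0.18 ± 0.15 in the strain comparison, and Tpbg, a membrane glycoprotein, went the other way at 0.16 ± 0.13. Of 8 measured neuroblast genes, 6 were below 0 on both strain arrays and 0 above, with a median of −0.21. The homeobox genes Dlx1 (−0.36 ± 0.38) and Dlx2 (−0.32 ± 0.01), which specify GABAergic interneurons, had the lowest strain means, although the Dlx1 arrays stood at −0.63 and −0.09. In the diet comparison 5 of the 8 were above 0 on both arrays and 0 below, with a median of 0.10, led by the transcription factor gene Sox11 at 0.18 ± 0.13 and Dlx5 at 0.14 ± 0.08. The other 2 Sox11 probes stood at 0.09 and −0.03 there. For all genes these shares were 26.6% and 20.5%.

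Periglomerular genes were mixed. Of 8, 3 were below and 3 above 0 on both strain arrays, against 26.6% and 23.9% of all genes, with a median of −0.06. In the diet comparison 4 were below and 1 above 0 on both arrays, with a median of −0.04, opposite in sign to that of the members. Th, the tyrosine hydroxylase of dopaminergic cells here and in the midbrain, stood at −0.13 ± 0.09 in the strain and 0.09 ± 0.05 in the diet comparison. The largest ratios of the list were those of Zic1, a zinc finger gene also strong in cerebellum, at 0.26 ± 0.24 and −0.23 ± 0.28, and those of the zinc finger gene Sall3, at −0.18 ± 0.20 and 0.15 ± 0.22. The other Sall3 probe stood at 0.10 in the strain comparison, so its direction there is uncertain. Of 5 genes of ensheathing glia, the cells that wrap the sensory axons, 3 were above and 2 below 0 on both strain arrays. Fabp7, a fatty acid binding protein also found in astrocytes, stood at 0.32 ± 0.15 and Frzb, a secreted Wnt antagonist, at −0.17 ± 0.10. In the diet comparison Frzb stood at 0.16 ± 0.21 and Mybpc1, a myosin-binding protein, at −0.22 ± 0.07.

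The sensory neurons that express Omp have further marker genes. Of 11 with a probe, 2 were above and 3 below 0 on both strain arrays, against 23.9% and 26.6% of all genes. Rtp2, among those above, was well above background in every SAMP8 LSO reading but in 0 SAMR1 readings. The medians were −0.01 in both comparisons. The summed level of the 11 genes was 58460 to 59066 in SAMR1, 59750 to 63365 in SAMP8 LSO and 58590 to 58638 in SAMP8 WME. Because unlogged intensities are added, the brightest genes weigh most in this sum and dim ones add little. Kirrel2, an adhesion molecule of sensory axons, was the gene past 1.5-fold, lower in SAMP8 at −0.69 ± 0.13, but its other probe stood at −0.04. Gnal and Adcy3, the G protein and adenylyl cyclase of odour signalling that brain neurons also express, stood at −0.02 ± 0.04 and −0.15 ± 0.03 in the strain comparison. In the diet comparison the largest ratios were those of Stoml3 (−0.13 ± 0.21), a stomatin-like protein, and Rtp2 (−0.11 ± 0.17), a receptor transporting protein, both smaller than their spread over arrays.

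Transcripts of the nasal mucosa had medians of the opposite sign. Of 6 measured genes of support cells and glands, 6 were above 0 on both strain arrays, against 23.9% of all genes. Among these, Bpifa1 was well above background in every SAMP8 reading but in 0 SAMR1 readings. It thus counted as measured for strain only through the group where it is high, which favours its sign. Below 0 on both diet arrays were 5, against 17.6%, and the medians were 0.75 and −0.24. Cyp2a5 (1.53 ± 0.24), Cyp2g1 (1.37 ± 0.02) and Cyp2f2 (1.14 ± 0.03), cytochrome P450 genes of that tissue, were past 1.5-fold in the strain comparison. Cyp2g1 (−1.03 ± 0.37) and Cyp2a5 (−0.72 ± 0.10) were past it in the diet comparison. These 3 genes lie in 1 gene cluster, and the medians rest largely on them. The other measured genes had smaller ratios in the strain comparison, also above 0, with Bpifa1 at 0.35 ± 0.03, Ugt2a1 at 0.19 ± 0.003 and Sec14l3 at 0.09 ± 0.03. Bpifa1 stood above 0 with WME at 0.15 ± 0.20. The second Cyp2g1 probe stood at 0.24 and 0.05, and Cyp2a5 has near-identical copies, so both values are uncertain. The summed level of the 9 listed genes with a probe was 1301 to 1378 in SAMR1, 1698 to 1773 in SAMP8 WME and 2346 to 2524 in SAMP8 LSO. That is the reverse of the order of the 5 bulb genes, from readings of 1 RNA per group, and the sum holds the uncertain probes and those not above background. The secreted mucosal proteins Obp1a, Obp2a and Reg3g were not well above background in any reading. The part of such tissue in the bulb results was not tested.

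Marker genes of other brain regions were set beside the members. The 9 striatal genes had medians of 0.08 for strain and 0.03 for diet. On both strain arrays 8 were above and 0 below 0, against 23.9% and 26.6% of all genes. Among them Tac1, the gene of a tachykinin precursor, stood at 0.14 ± 0.10 for strain, and Drd1, a dopamine receptor, at 0.15 ± 0.03 for diet. The 6 hippocampal genes had medians of −0.05 and 0.05, with Spink8, a protease inhibitor gene of pyramidal cells, past 1.5-fold at 1.17 ± 0.15 in the strain comparison. These medians also had the signs of those of the members, though they were smaller. The largest diet ratios of that list were those of Neurod6, at 0.16 ± 0.19, and Prox1, at 0.07 ± 0.10. Neurod6 stood at −0.17 ± 0.06 for strain. It was above 0 on both diet arrays and below 0 on both strain arrays, so this pattern was not confined to bulb lists. The 8 cerebellar genes had medians of 0.05 and −0.24, and 7 of 8 were below 0 on both diet arrays, against 17.6% of all genes. They were led by Cbln1, a synaptic organiser, at −0.29 ± 0.08 and En2 at −0.27 ± 0.13. In the strain comparison 5 of the 8 were above 0 on both arrays and 0 below, against 23.9% and 26.6% of all genes. The carbonic anhydrase-related gene Car8 stood there at 0.22 ± 0.08 and En2 at 0.19 ± 0.16. Cerebellar genes thus stood mostly opposite to the 5 bulb genes in sign. With 1 RNA a group the difference between the lists has no test.

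**Figure D5:**
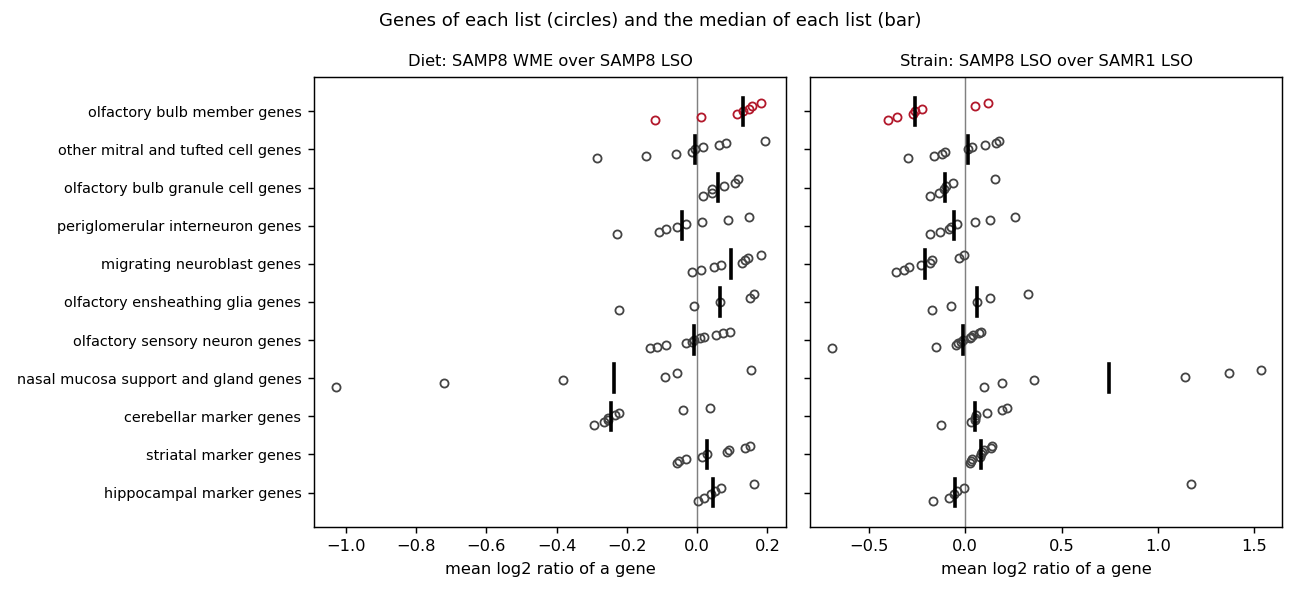
Mean log2 ratio of each measured gene (circles) and the median of each list (bar) in the diet and strain comparisons, with the 7 members in red at the top; the horizontal scales of the panels differ. The members have a median of 0.13 for diet and −0.26 for strain, the neuroblast genes 0.10 and −0.21, and the nasal mucosa genes −0.24 and 0.75.

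The genes most like the members were sought by the Euclidean distance between the 4 array ratios of a gene and the median of the members on each array, which was 0.04, 0.01, −0.11 and −0.22. Of 14588 other named genes, the nearest were Dupd1, a dual-specificity phosphatase (distance 0.009), Ramp3, a receptor activity-modifying protein (0.040), Tcte3 (0.044), Tdh, threonine dehydrogenase (0.044), and Mrpl32 of the mitochondrial ribosome (0.047). Their strain means were −0.19 to −0.14 and their diet means 0.01 to 0.03. The members themselves lay 0.29 to 0.53 from their own median, and between 5458 and 12635 other genes were closer to it than each member was.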

How the data were processed

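Whole-brain RNA of 3 groups was hybridised in pairs to 4 Agilent mouse arrays on 1 slide, each pair on 2 arrays with dyes exchanged. Per the file headers, the deposited scanner files hold spot intensities that Feature Extraction (version 11.0.1.1) wrote. The deposited median intensities are raw; the processed ones had background removed and dyes normalized by that program. The deposited series table holds log2 ratios of red to green, the same as from each array's processed signals, so its values were not turned for dye (column medians −0.018, 0.012, 0.0036 and 0.017).

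Median signals, used because the files examined hold no mean signal column, were background-corrected with normexp (offset 50), normalized by loess within arrays (limma 3.58.1 under R 4.3.3), giving control spots a weight of 0, and averaged over the spots of a probe. Outlier spots (105 to 123 per array) were left out. For levels, the distribution of average intensities was also made equal between arrays (Aquantile). Ratios were turned to WME over LSO or SAMP8 over SAMR1. The offset pulls ratios of dim probes such as Omp towards 0. Probes were named through RefSeq accessions of GRCm38.p6, which served only for names and upstream sequence, since the array design names another build. A gene stands by its brightest probe, and in shares of all genes an accession without a gene name counts as a gene. Named genes were the 7 members, up to 4 genes of a list past 1.5-fold or else those with the largest ratios, and the 5 nearest genes. A gene of the striatal list that this rule picks is not reported here. Named beyond this rule, after their values were seen, were Th, Gnal, Adcy3, Dcx, Cpne4, Ntng1, Bpifa1, Ugt2a1, Sec14l3 and the genes not well above background. The members and lists were chosen with earlier results of these data known. The calculation was tested on simulated data.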

Additional observations from a re-analysis of the deposited data

How the results depend on the processing

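The median of the 7 members kept its sign in all 3 ratios under each alternative run. For diet (0.13 as reported) it was 0.22 under median centring, where the median of all genes was itself 0.07, and 0.012 to 0.039 on single arrays. For strain (−0.26) single arrays gave −0.22 to −0.11, and for the indirect sum (−0.09) single dye orientations gave −0.087 to −0.0016, while processed signals gave −0.18. The number of members past 1.5-fold stayed at 0, except for 1 member (Doc2g) lower in the sum of arrays 1 and 3 alone. Under the added 1.2-fold rule on the mean, 3 members were lower in the strain comparison. The count was 0 at 1.2-fold and at 2-fold on both arrays, and with dye-cancelled sums. The 63 gene values per ratio under alternatives include those on single arrays. They also include changes of the background filter, which could not alter any member because every member probe passed the mark in every reading. The median over probes could alter only Doc2g. Processing turned the sign of 1 diet value (Omp, −0.08 under median centring) and of 1 indirect sum (Nmb, 0.04 under median centring), and of 0 strain values. Single arrays turned the sign of 3 diet values, 1 strain value and 4 sums. The cause was not tested. No paired analysis was possible because each group is 1 RNA. Omp was at most 2.58 times over background, which limits its value.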

Other observations

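Other probes of the listed bulb genes disagreed in places. A second Sox11 probe stood at −1.05 in the strain comparison (−0.98 and −1.12 on arrays 3 and 4), where the brightest Sox11 probe stood at −0.03 and the third at −0.03. The brightest Dcx probe, for the doublecortin of migrating neuroblasts, stood at −0.23 and its other probes at −0.03 and −0.02. Meis2 was lower on both of its probes, at −0.18 and −0.21, and Cpne4 at −0.10 and −0.21. Tpbg was higher on both, at 0.16 and 0.19. Ntng1 stood at −0.12 and 0.14 on its 2 probes, which differed in sign.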
